A study of Mus musculus with 41 samples.

Results

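The genes of cholesterol and fatty acid synthesis were followed in RNA-seq of sorted mouse regulatory T (Treg) cells with intact or floxed Uhrf1. They were 35 genes chosen by name, and all 35 had a row among the 19434 genes of the table. By role they were 7 genes of the mevalonate arm, 10 of the sterol arm, 5 regulators, 8 of fatty acid synthesis and 5 of sterol transport and the liver X receptor (LXR) response. Of these, 33 passed the filter on low counts in both experiments, and Scd1 and Fads2 passed in neither.

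Uhrf1 encodes a factor needed to keep DNA methylation through cell division. The chimera experiment used CD25-high Foxp3-YFP+ Treg cells from mice labelled as 8-week-old females. Chimeric knockouts were Uhrf1fl/flFoxp3+/YFP-Cre (n = 4), in which Cre sits on 1 X chromosome and so acts in part of the Treg pool, and controls were Uhrf1+/+Foxp3YFP-Cre/YFP-Cre (n = 4). All pulse-chase mice, also aged 8 weeks, carried Foxp3GFP-CreERT2, a Cre driven by Foxp3 that tamoxifen activates, and Rosa26SorCAG-tdTomato, a reporter that stays on after Cre has acted. Tamoxifen was given in the chow for 2 weeks, and 4 weeks of standard chow came after it. From Uhrf1fl/fl mice (n = 6 of each) and Uhrf1+/+ controls (n = 5 of each) came ex-Foxp3 cells (GFP negative, tdTomato positive), labeled Treg cells (positive for both) and post-tamoxifen Treg cells (GFP positive, tdTomato negative). The post-tamoxifen cells were negative for the reporter in both genotypes, so the floxed alleles of the fl/fl group are not marked as deleted in them.

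Cells build cholesterol from acetyl-CoA through mevalonate and squalene, and most enzymes of this route are switched on together by the SREBP transcription factors. SREBP precursors are carried by Scap out of the endoplasmic reticulum when sterols are low, and Insig proteins hold them back when sterols are high. LXR factors act in the other direction and switch on genes that export cholesterol. T cells raise sterol and fatty acid synthesis when they divide, and Treg cells also need mevalonate for attaching lipid anchors to signalling proteins.

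Total counts ran from 781437 to 5709702 per library. The summed level of 8 CD4 and Treg markers lay between 2880 and 5500 CPM (counts scaled to library total) in every library. Of these 8, 4 fell and 1 rose in ex-Foxp3 against labeled cells of fl/fl mice, and 3 fell and 1 rose in controls. In ex-Foxp3 cells the Foxp3 level was 13.3 to 113 CPM in fl/fl and 79.3 to 151 CPM in control libraries, against 317 to 507 CPM in labeled fl/fl and 387 to 428 CPM in labeled control libraries. Post-tamoxifen control 2 (122.5 CPM) and fl/fl 3 (127.1 CPM) had the lowest Foxp3 of their groups. Uhrf1 was 11.9, 8.65, 9.24 and 22.3 CPM in chimeric knockouts and 32.4, 22.4, 23.3 and 22.2 CPM in controls, so the library labelled chimeric knockout 4 lay at the control level. In labeled cells Uhrf1 did not separate the genotypes (log2 fold change -0.15 ± 0.60 (SE), edgeR adjusted p = 0.961). In post-tamoxifen cells Uhrf1 was 150, 123, 155, 18.9, 33.6 and 27.0 CPM in fl/fl libraries 1 to 6 and 59.4, 22.1, 36.4, 17.7 and 13.7 CPM in controls (1.62 ± 0.64, edgeR adjusted p = 0.113). Which exons Cre removes was not given in the sources used here, so the gene-wide count may not test the deletion. Chimera control 1 and pulse-chase controls 2 and 3 held 318 to 455 CPM of Y-linked reads against at most 2.33 CPM in all others, so chimera control 1 goes against its label of a female. In bulk samples, fewer cells of a type and less RNA per cell cannot be told apart.

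Promoters are shown for 5 members, 3 that are classic SREBP targets (Hmgcs1, Idi1 and Cyp51) and 2 LXR targets (Abca1 and Mylip), because the text gives their values per library; of them Cyp51, Abca1 and Mylip were called in a comparison. Each line is the sequence of the 250 bases before the RefSeq start site in GRCm38.p6, on the gene's own strand. That site lies 111 bases from the start of the gene as counted for Hmgcs1, 105 for Idi1 and 49 for Cyp51. For Idi1 and Cyp51 the windows reach into the gene as counted, where the Idi1 matches and the Cyp51 CCAAT match lie. Capitals mark matches, on either strand, to TCACNCCAC (the sterol regulatory element), CCAAT (bound by NF-Y, reverse ATTGG) or GGGCGG (bound by Sp1, reverse CCGCCC). The LXR direct repeat was searched as well. No matches to different motifs overlapped. The windows are chr13:119690101-119690350 (plus) for Hmgcs1, chr13:8885356-8885605 (plus) for Idi1, chr5:4104698-4104947 (minus) for Cyp51, chr4:53159896-53160145 (minus) for Abca1 and chr13:45389492-45389741 (plus) for Mylip.
Hmgcs1: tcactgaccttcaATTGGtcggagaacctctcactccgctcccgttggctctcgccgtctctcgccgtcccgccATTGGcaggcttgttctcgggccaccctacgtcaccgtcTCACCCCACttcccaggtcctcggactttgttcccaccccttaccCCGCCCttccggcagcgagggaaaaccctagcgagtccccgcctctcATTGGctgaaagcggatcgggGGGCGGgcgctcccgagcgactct
Idi1: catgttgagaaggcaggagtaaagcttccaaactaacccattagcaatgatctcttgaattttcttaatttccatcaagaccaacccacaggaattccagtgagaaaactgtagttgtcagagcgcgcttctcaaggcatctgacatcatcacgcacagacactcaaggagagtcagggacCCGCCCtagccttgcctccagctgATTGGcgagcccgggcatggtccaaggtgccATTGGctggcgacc
Cyp51: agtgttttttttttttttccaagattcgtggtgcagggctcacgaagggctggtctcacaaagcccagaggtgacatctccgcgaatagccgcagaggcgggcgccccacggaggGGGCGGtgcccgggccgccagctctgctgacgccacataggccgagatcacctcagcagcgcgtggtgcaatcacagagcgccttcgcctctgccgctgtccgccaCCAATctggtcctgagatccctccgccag
Abca1: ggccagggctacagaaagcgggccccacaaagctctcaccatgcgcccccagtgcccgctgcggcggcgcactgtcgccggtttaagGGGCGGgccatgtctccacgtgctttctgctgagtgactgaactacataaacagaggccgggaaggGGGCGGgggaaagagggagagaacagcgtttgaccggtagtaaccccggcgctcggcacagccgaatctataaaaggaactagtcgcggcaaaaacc
Mylip: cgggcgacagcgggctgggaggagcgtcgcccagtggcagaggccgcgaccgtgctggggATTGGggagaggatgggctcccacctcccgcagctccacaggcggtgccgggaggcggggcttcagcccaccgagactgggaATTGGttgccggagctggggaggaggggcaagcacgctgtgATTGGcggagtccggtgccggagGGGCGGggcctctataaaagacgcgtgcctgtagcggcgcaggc

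The promoter table matched 27 of the 35 members; Fdft1, Stard4, Sqle, Abcg1, Scd2, Fads1, Scd1 and Fdps had no entry. The sterol regulatory element was found in 1 of the 27 (3.7%), in Hmgcs1, 137 to 129 bases before the start, and in 1.05% of 32851 promoters of the same length. CCAAT was found in 17 of 27 members (63%) and in 33.8% of all promoters, and GGGCGG in 19 (70.4%) and in 32.7%. The LXR repeat was found in 0 members and in 0.0152% of all promoters. Of the sequences shown, Hmgcs1, Idi1 and Mylip hold more than 1 CCAAT match, while Abca1 holds GGGCGG alone. A match describes the letters and does not show that a factor binds.

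Per kilobase of exon, the 6 most abundant members in the pulse-chase libraries were 3 fatty acid genes, 1 regulator and 2 genes of transport and the LXR response. Acly, which makes acetyl-CoA from citrate, averaged 42.4 CPM per kb (scaled by TMM, the trimmed mean of M values, as are all levels of single genes given here). Srebf2, which encodes the SREBP that drives sterol genes, followed at 37.1, then the LXR gene Nr1h2 at 26.9, Mylip at 24.8, the desaturase gene Scd2 at 24.3 and the fatty acid synthase gene Fasn at 19.97 CPM per kb. Enzymes of the mevalonate and sterol arms were lower, among them Hmgcs1 with 11.1, Cyp51 with 10.3, Idi1 with 8.15, Fdps with 4.88 and Lss with 2.21 CPM per kb. Scd1 at 0.445 and Fads2 at 0.0316 CPM per kb were the lowest of the 35. The desaturase genes Scd1 and Scd2 are close copies, as are Acat2 and Acat3, so reads may have been split between them.

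Chimeric knockout Treg cells were set against control Treg cells. Both were sorted as Foxp3-YFP+, the cells that express Cre. Uhrf1 is floxed in the knockouts alone, but controls carry Foxp3-YFP-Cre on both X chromosomes and knockouts on 1. The number of Cre alleles and the Cre-negative Treg cells of the knockouts cannot be told apart from floxed Uhrf1 here. Cyp51, the lanosterol demethylase of the sterol arm, and Fdps, which makes farnesyl diphosphate at the branch between sterols and lipid anchors, rose. Cyp51 averaged 60.1 ± 8.33 CPM in chimeric knockouts and 39.9 ± 9.001 CPM in controls, and Fdps 26.5 ± 6.09 and 15.7 ± 2.50 CPM (SD, n = 4 each). They were the only 2 of 33 members past an adjusted p of 0.05 (edgeR quasi-likelihood test, Benjamini-Hochberg over all genes tested), both higher, against 0.857% of all 9569 genes higher and 2.41% in either direction. The median log2 fold change of the members was 0.18, against 0.00085 over all genes tested, and 21 of 33 were above 0 (63.6%, against 50.15% of all genes). At an unadjusted p below 0.05, 10 members were higher and 1 was lower, against 6.01% and 7.4% of all genes.

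Cyp51 (chr5:4081145-4104746, minus strand, mm10) was 61.3, 69.2, 60.9 and 49.0 CPM in chimeric knockouts and 48.6, 46.4, 30.3 and 34.2 CPM in controls (log2 fold change 0.58 ± 0.15 (SE), edgeR adjusted p = 0.0354). The groups did not overlap, though the library labelled chimeric knockout 4 and control 1 lay within 1 CPM of each other. Fdps (chr3:89093592-89101967, minus strand) was 21.0, 32.8, 30.6 and 21.7 CPM in chimeric knockouts and 15.4, 14.5, 19.2 and 13.5 CPM in controls (0.77 ± 0.21, edgeR adjusted p = 0.0387). Again every knockout library was above every control. These were the 2 members whose groups did not overlap, both higher, against 3.44% of all genes. Idi1 (chr13:8885501-8892451, plus strand), which isomerises the isoprenoid unit before Fdps uses it, was 49.9, 41.5, 31.5 and 26.4 CPM in chimeric knockouts and 21.6, 23.99, 27.4 and 28.4 CPM in controls (0.58 ± 0.18, edgeR adjusted p = 0.0904). Here 3 knockout libraries lay above all controls, and the library labelled chimeric knockout 4 lay among the controls.

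**Figure D1:**
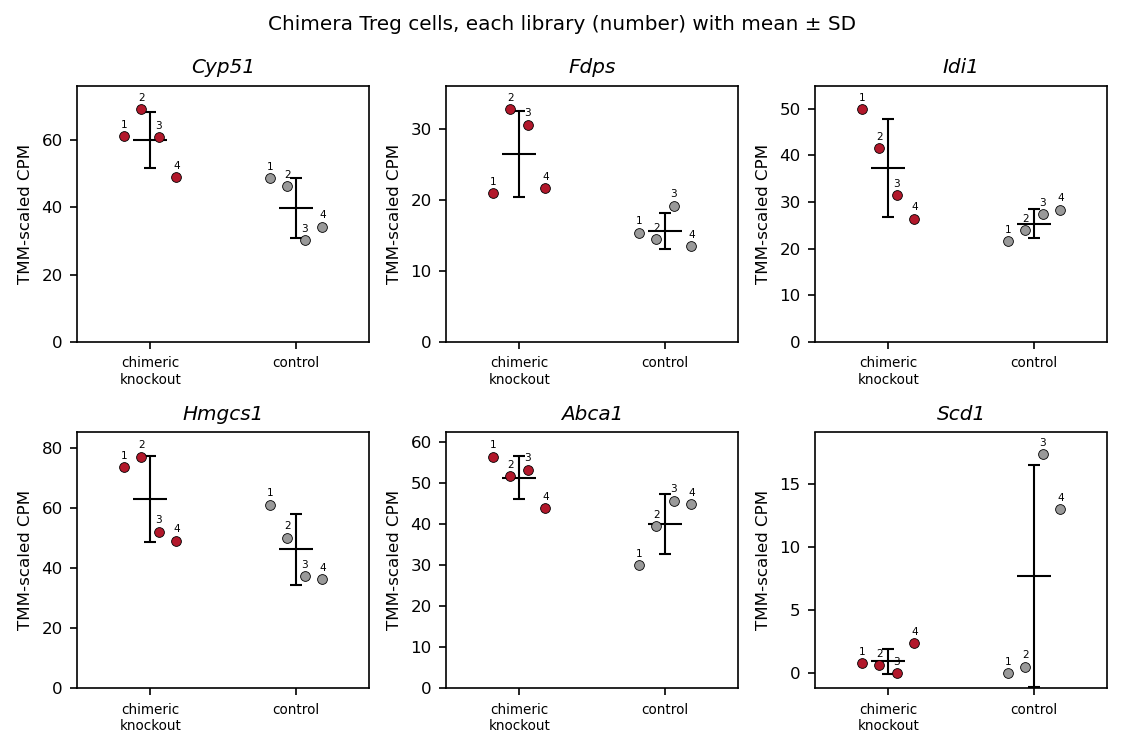
TMM-scaled CPM of 6 members in each chimera library, with the library number beside the point and the bar at mean ± SD (n = 4 each). Cyp51 and Fdps do not overlap between chimeric knockout and control, Idi1, Hmgcs1 and Abca1 do, and Scd1 is above 10 CPM in controls 3 and 4 alone.

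In the mevalonate arm, Hmgcs1 (chr13:119690462-119708086, plus strand), which joins acetyl units for the route, was 73.5, 77.0, 52.1 and 49.0 CPM in chimeric knockouts and 61.0, 50.1, 37.2 and 36.3 CPM in controls (0.44 ± 0.18, edgeR adjusted p = 0.248). The groups overlapped. The kinase and decarboxylase genes Mvk, Pmvk and Mvd had log2 fold changes of -0.22, -0.21 and -0.06, and the thiolase gene Acat2 had 0.22; these 4 are expressed below 12 CPM on average. In the sterol arm 9 of 10 members were above 0, among them the squalene epoxidase gene Sqle (0.44 ± 0.17), the lanosterol synthase gene Lss (0.47 ± 0.19) and the squalene synthase gene Fdft1 (0.19 ± 0.15), whose reads cannot be told apart from those of Ctsb on the other strand because the strand setting of the counting was not given. The exception was the sterol isomerase gene Ebp at -0.40 ± 0.18 (edgeR adjusted p = 0.338).

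**Figure D2:**
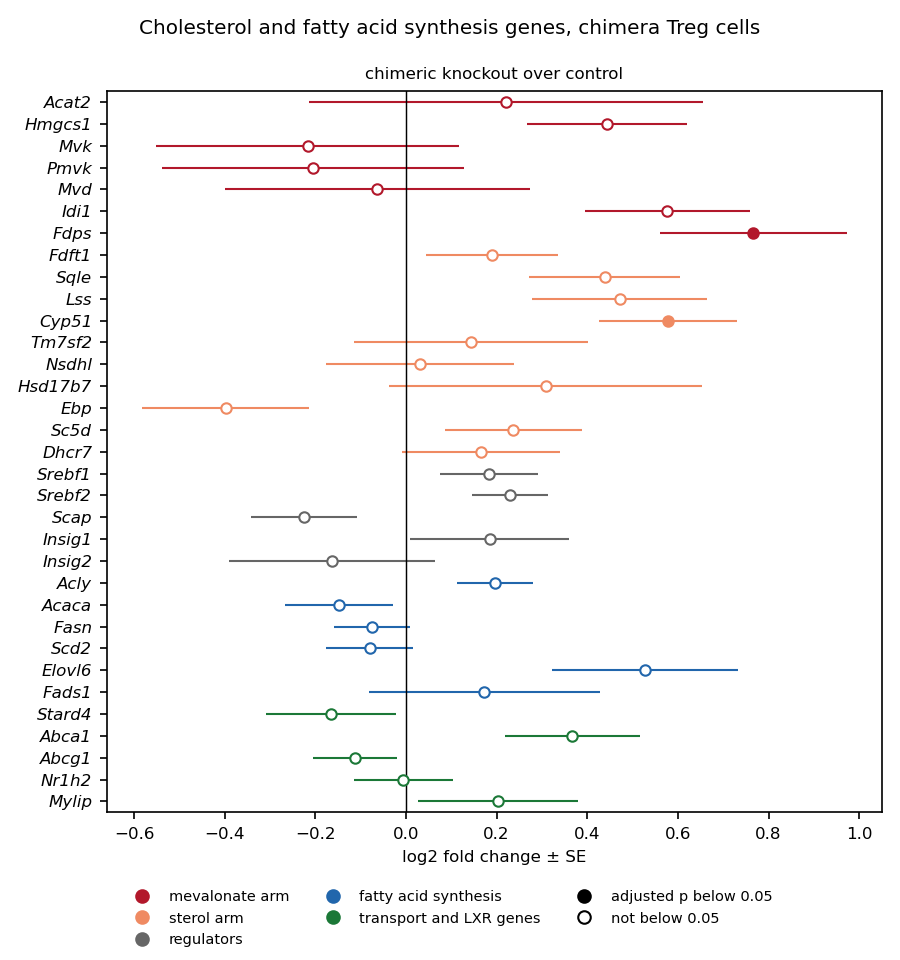
Log2 fold change ± SE of the 33 tested members, chimeric knockout over control (n = 4 each), coloured by role. Filled points, Cyp51 and Fdps, are past an adjusted p of 0.05; open points are not.

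Among the regulators Srebf2 was 330, 331, 308 and 260 CPM in chimeric knockouts and 254, 250, 249 and 296 CPM in controls (0.23 ± 0.08, edgeR adjusted p = 0.163), with the library labelled chimeric knockout 4 inside the control range. Srebf1, which overlaps Rai1 on the other strand, had a log2 fold change of 0.18, Insig1 0.18, Insig2 -0.16 and Scap -0.22, and none of the 5 passed. The fatty acid genes split evenly, with 3 of 6 above 0. Elovl6, an elongase, was at 0.53 ± 0.21 (edgeR adjusted p = 0.21), Acly at 0.20, Fasn at -0.07, Scd2 at -0.08 and the acetyl-CoA carboxylase gene Acaca at -0.15. In the transport group the cholesterol exporter gene Abca1 (chr4:53030787-53159895, minus strand) was 56.5, 51.7, 53.3 and 44.0 CPM in chimeric knockouts and 30.0, 39.5, 45.7 and 45.0 CPM in controls (0.37 ± 0.15, edgeR adjusted p = 0.238). The exporter Abcg1, Nr1h2, the sterol carrier gene Stard4 and Mylip were at -0.11, -0.01, -0.17 and 0.20.

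Other transcripts also differed among the chimera libraries. Foxp3 averaged 677 ± 105 CPM in chimeric knockouts and 519 ± 73.4 CPM in controls (SD), at 0.38 ± 0.13 (SE, edgeR adjusted p = 0.176). Of the 8 CD4 and Treg markers edgeR called 1, which was lower, against 1.56% of all genes lower. Among the controls, numbers 3 and 4 were lowest for Cyp51 and Hmgcs1 and highest for Idi1. Fdps was highest in control 3 and lowest in control 4. Controls 3 and 4 held 634 and 550 CPM of 20 summed cell division genes against 246 and 219 CPM in controls 1 and 2 and 144 to 310 CPM in chimeric knockouts; of the 20, 15 were tested and edgeR called 0 (2 at an unadjusted p below 0.05), with a median of -0.73. The sum of 7 B and plasma cell markers was 10.3, 7.62, 15.4 and 14.1 CPM in chimeric knockouts and 5.64, 8.06, 91.7 and 83.9 CPM in controls, with none of the 7 at 0. Their part in the result was not tested. Without controls 3 and 4 together no member passed (Cyp51 0.35, edgeR adjusted p = 0.452, and Fdps 0.83, edgeR adjusted p = 0.13), and the members' median was 0.10. Scd1, which the filter left out, followed the same libraries, with 0.796, 0.665, 0 and 2.38 CPM in chimeric knockouts and 0, 0.529, 17.3 and 13.0 CPM in controls.

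The calls rest on few libraries. Cyp51 fell short without chimeric knockout 1, 2 or 3 or control 3 or 4 (log2 fold change 0.48 to 0.69 over all refits, edgeR adjusted p 0.0101 to 0.16), and Fdps without chimeric knockout 2 or 3 or control 1, 2 or 4 (0.64 to 0.87, 0.0176 to 0.204). Without the library labelled chimeric knockout 4, Cyp51 (0.67, edgeR adjusted p = 0.0101), Fdps (0.85, 0.0176), Idi1 (0.71, 0.0168) and Srebf2 (0.30, 0.029) passed, 4 of 33, and 352 of all genes were called in that refit, against 231 with it. DESeq2 on the 8 libraries called 0 members. Averaged over the 33 members, the log2 level was 5.33, 5.31, 5.24 and 5.20 in chimeric knockouts and 5.17, 5.15, 5.07 and 5.16 in controls. The lowest knockout (5.20) and the highest control (5.17) lay close together. This average was not set beside that of other genes, and the members were chosen with earlier results known.

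In labeled Treg cells, which had seen Cre and kept Foxp3, fl/fl and control mice were set side by side, and edgeR called 0 of 33 members. Of all 9921 genes, 0.0101% were called. No member had an unadjusted p below 0.05, against 9.41% of all genes, DESeq2 also called 0, and the median log2 fold change was 0.02. The members with the smallest p were Elovl6, Acaca and Ebp. Elovl6 was 14.3, 23.9 and 25.5 CPM (lowest, median, highest) in fl/fl and 15.1, 8.42, 23.4, 21.9 and 13.9 CPM in controls (0.42 ± 0.25, edgeR adjusted p = 0.623). Acaca was 58.1, 66.4 and 76.6 CPM in fl/fl and 68.6, 77.3, 73.5, 74.2 and 103 CPM in controls (-0.21 ± 0.13, edgeR adjusted p = 0.643). Ebp was 19.3, 37.2 and 67.1 CPM in fl/fl and 33.2, 32.1, 34.7, 21.5 and 31.4 CPM in controls (0.34 ± 0.22, edgeR adjusted p = 0.677). All of these overlapped between genotypes. Cyp51 and Fdps, higher in chimeric knockouts, had log2 fold changes of -0.15 ± 0.23 and 0.02 ± 0.30 in labeled cells.

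In ex-Foxp3 cells, where Foxp3-GFP was gone, fl/fl against control mice again gave 0 called members by edgeR and 0 by DESeq2, against 0.181% of all genes by edgeR. No member reached an unadjusted p of 0.05, against 8.84% of genes, and the median was -0.09. Stard4 was 46.3, 62.2 and 69.0 CPM (lowest, median, highest) in fl/fl and 40.7, 45.8, 60.4, 49.5 and 49.1 CPM in controls (0.30 ± 0.15, edgeR adjusted p = 0.569). Cyp51 was 21.7, 32.0 and 50.4 CPM in fl/fl and 59.4, 45.2, 47.2, 42.7 and 40.1 CPM in controls (-0.47 ± 0.23, edgeR adjusted p = 0.569). Scap was 57.9, 74.6 and 90.0 CPM in fl/fl and 57.3, 47.1, 63.8, 75.0 and 62.5 CPM in controls (0.26 ± 0.14, edgeR adjusted p = 0.63). For each of them 1 or more fl/fl libraries lay inside the control range.

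In post-tamoxifen Treg cells, Mylip, a ubiquitin ligase gene whose product marks lipoprotein receptors for destruction and which LXR switches on, was lower in fl/fl mice. It was the only 1 of 33 members called, against 3.33% of all genes lower and 7.23% in either direction. Mylip (chr13:45389742-45412019, plus strand) was 57.1, 67.5 and 72.4 CPM (lowest, median, highest) in fl/fl and 98.6, 96.2, 85.2, 83.0 and 87.7 CPM in controls (-0.43 ± 0.12, edgeR adjusted p = 0.0222). Every fl/fl library lay below every control, which held for 1.7% of all genes in that direction. Stard4 was 55.1, 65.4 and 82.6 CPM in fl/fl and 72.0, 43.5, 51.9, 39.7 and 48.9 CPM in controls (0.43 ± 0.15, edgeR adjusted p = 0.0704). Abcg1 was 88.2, 104 and 138 CPM in fl/fl and 125, 125, 110, 136 and 147 CPM in controls (-0.26 ± 0.13, edgeR adjusted p = 0.212). Both overlapped, with control 1 inside the fl/fl range of Stard4.

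The members' median in that comparison was 0.02, with 2 of 33 at an unadjusted p below 0.05, against 24.3% of all genes. The 20 cell division genes summed to 351 to 5820 CPM in fl/fl and 210 to 1650 CPM in control post-tamoxifen libraries, and the 7 B and plasma markers to 10.2 to 561 and 3.17 to 90.9 CPM. Of the 20 cell division genes 19 had an unadjusted p below 0.05 with a median of 2.49 and none was called, 1 of 3 tested B and plasma markers rose (4.30), and Pecam1, the 1 of 4 stromal and endothelial markers tested, fell (-0.63, edgeR adjusted p = 0.00127). The part of these genes in the Mylip difference was not tested. The Mylip call was lost without fl/fl 2 or 3 or control 2 or 5 (-0.45 to -0.38 over all refits, edgeR adjusted p 0.021 to 0.0727) and without the libraries holding Y-linked reads (-0.41, 0.107). Within numbers 1 to 3 it was -0.53 (edgeR adjusted p = 0.0395), and within numbers 4 and above -0.30 (0.45).

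**Figure D3:**
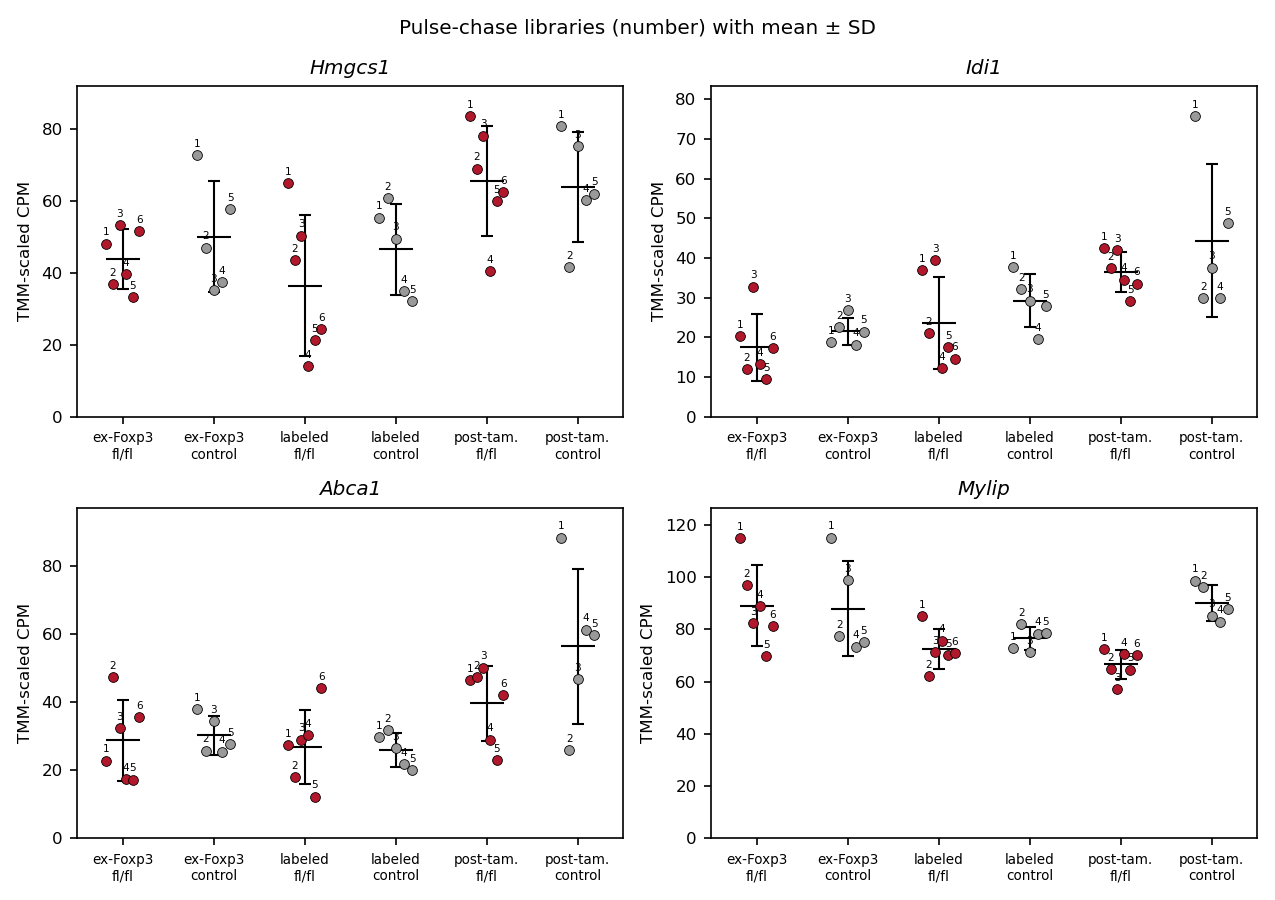
TMM-scaled CPM of Hmgcs1, Idi1, Abca1 and Mylip in each pulse-chase library (numbers beside the points, bars at mean ± SD, n = 6 fl/fl and 5 control). Hmgcs1 in labeled fl/fl cells spans 14.2 to 65.1 CPM, with numbers 4 to 6 lowest, and Mylip in post-tamoxifen cells separates the genotypes.

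Ex-Foxp3 cells were compared with labeled Treg cells of the same genotype to see what accompanies loss of Foxp3. The comparisons that share the labeled libraries are not independent of each other. In fl/fl mice edgeR called 0 of 33 members, against 4.09% of all genes, and 3 had an unadjusted p below 0.05, against 18% of genes. The median was -0.06. Mvd, the last decarboxylase of the mevalonate arm, was 0.766, 3.99 and 9.72 CPM (lowest, median, highest) in ex-Foxp3 and 3.87, 11.3 and 15.1 CPM in labeled cells (-1.08 ± 0.37, edgeR adjusted p = 0.0837). Lss was 17.4, 29.5 and 45.5 CPM in ex-Foxp3 and 11.3, 15.5 and 26.2 CPM in labeled cells (0.79 ± 0.28, edgeR adjusted p = 0.0998). Mylip was 69.7, 85.6 and 115 CPM in ex-Foxp3 and 62.0, 71.1 and 84.9 CPM in labeled cells (0.30 ± 0.11, edgeR adjusted p = 0.129). All 3 overlapped. With the library number as a block, Mvd (-1.16, edgeR adjusted p = 0.0369) and Lss (0.81, 0.0441) passed, 2 of 33, and 893 of all genes were called, against 406 without the block. DESeq2 called Mvd.

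In control mice the same comparison gave 0 called members by edgeR and 0 by DESeq2, against 0.353% of all genes, with 2 at an unadjusted p below 0.05 against 9.6% of genes and a median of 0.03. Scap was 57.3, 47.1, 63.8, 75.0 and 62.5 CPM in ex-Foxp3 and 72.7, 73.5, 88.8, 76.8 and 110 CPM in labeled cells (-0.44 ± 0.15, edgeR adjusted p = 0.244). Nsdhl, a sterol dehydrogenase gene, was 8.57, 14.8, 17.9, 9.37 and 8.72 CPM in ex-Foxp3 and 17.7, 16.4, 20.7, 18.8 and 27.0 CPM in labeled cells (-0.75 ± 0.28, edgeR adjusted p = 0.314). Mvd was 6.43, 6.45, 6.38, 3.64 and 5.81 CPM in ex-Foxp3 and 9.80, 11.9, 9.46, 11.1 and 5.23 CPM in labeled cells (-0.75 ± 0.39, edgeR adjusted p = 0.562). In each, 1 library kept the groups from separating. With the library number as a block 0 members and 211 of all genes were called, against 35 genes without it. The 20 cell division genes summed to 342 to 1000 CPM in ex-Foxp3 and 337 to 4130 CPM in labeled fl/fl libraries, and to 216 to 780 and 314 to 1980 CPM in controls. Whether they bear on these values was not tested.

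Most members had lower values in labeled than in post-tamoxifen Treg cells. In fl/fl mice 26 of 33 log2 fold changes were below 0, leaving 21.2% above 0 against 46.95% of all genes. The median was -0.14, against -0.02 for all genes. By edgeR 0 members were called, against 4.58% of genes. At an unadjusted p below 0.05 there were 4 members, all lower, against 8.91% of all genes lower and 16.6% in either direction. Hmgcs1 was 14.2, 34.0 and 65.1 CPM (lowest, median, highest) in labeled and 40.6, 65.8 and 83.7 CPM in post-tamoxifen fl/fl cells (-0.84 ± 0.26, edgeR adjusted p = 0.0515). Idi1 was 12.3, 19.4 and 39.5 CPM in labeled and 29.1, 36.0 and 42.5 CPM in post-tamoxifen cells (-0.63 ± 0.26, edgeR adjusted p = 0.193). Insig1 was 17.6, 26.0 and 33.8 CPM in labeled and 25.8, 35.1 and 41.9 CPM in post-tamoxifen cells (-0.44 ± 0.20, edgeR adjusted p = 0.241). All 3 overlapped between the populations. With the library number as a block Hmgcs1 (-0.90, edgeR adjusted p = 0.0038) and Idi1 (-0.70, 0.0199) passed, 2 of 33, and 805 of all genes were called, against 454 without the block. DESeq2 called Hmgcs1 and Scd1.

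The libraries split by number here. Labeled fl/fl numbers 1 to 3 held 65.1, 43.6 and 50.4 CPM of Hmgcs1 and 2490 to 4126 CPM of summed cell division genes, and numbers 4 to 6 held 14.2, 21.3 and 24.4 CPM and 337 to 442 CPM. Post-tamoxifen fl/fl numbers 1 to 3 held 83.7, 69.0 and 78.2 CPM of Hmgcs1 and 3564 to 5817 CPM of cell division genes, and numbers 4 to 6 held 40.6, 60.1 and 62.5 CPM and 351 to 609 CPM. Within numbers 1 to 3 the Hmgcs1 log2 fold change was -0.54 (edgeR adjusted p = 0.46), and within numbers 4 and above -1.38 (6.5e-05); for Idi1 they were -0.32 (0.854) and -1.10 (0.0102). The part of the cell division genes in this difference was not tested.

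In control mice Abca1 fell to 29.8, 31.8, 26.6, 21.9 and 20.04 CPM in labeled cells, against 88.5, 26.0, 46.7, 61.3 and 59.8 CPM in post-tamoxifen cells (-1.06 ± 0.30, edgeR adjusted p = 0.0205). It was the only 1 of 33 members called, against 3.95% of all genes lower and 7.93% in either direction; post-tamoxifen control 2 was the library that overlapped. The members' median was -0.20, against 0.0028 for all genes. Of the 33, 23 were below 0, leaving 30.3% above 0 against 50.4% of all genes. At an unadjusted p below 0.05 there were 7 members, against 20.1% of genes, and 6 of them were lower, against 10.2% of genes. Srebf2 was 219, 241, 297, 239 and 236 CPM in labeled and 346, 281, 328, 348 and 304 CPM in post-tamoxifen cells (-0.38 ± 0.13, edgeR adjusted p = 0.0564). With the library number as a block Srebf2 was at -0.38 (edgeR adjusted p = 0.0033). Sc5d, a late sterol desaturase gene, was 60.3, 75.8, 49.1, 49.95 and 38.3 CPM in labeled and 36.6, 42.2, 48.3, 31.8 and 40.7 CPM in post-tamoxifen cells (0.46 ± 0.18, edgeR adjusted p = 0.107). In Srebf2 labeled library 3, and in Sc5d labeled library 5, crossed into the other group. Mylip did not overlap, with 71.2 to 81.9 CPM in labeled and 83.0 to 98.6 CPM in post-tamoxifen controls (-0.23 ± 0.12, edgeR adjusted p = 0.305), against 2.72% of all genes in that direction.

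**Figure D4:**
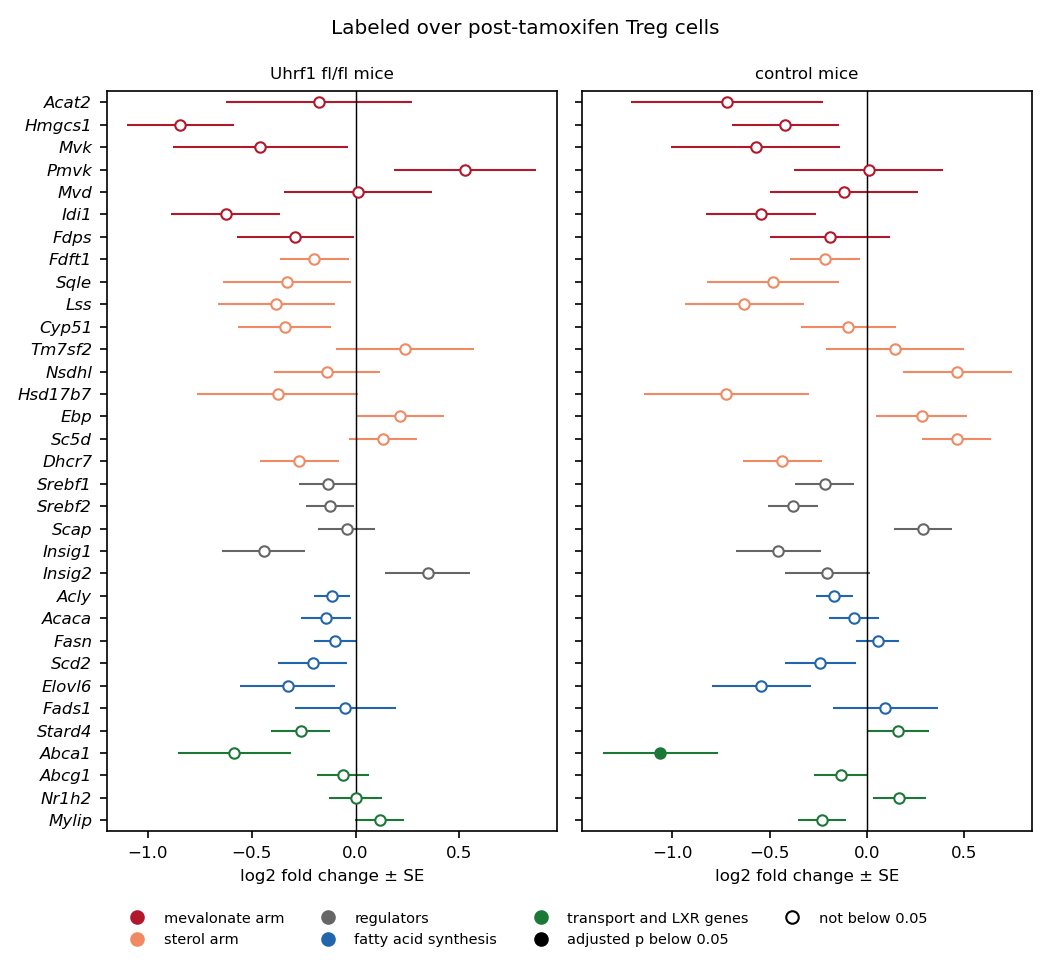
Log2 fold change ± SE of the 33 tested members, labeled over post-tamoxifen Treg cells, in fl/fl mice (left, n = 6 each) and controls (right, n = 5 each), coloured by role. Abca1 in controls is the filled point, past an adjusted p of 0.05, and 26 and 23 of the points lie below 0.

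Myeloid transcripts also differed between labeled and post-tamoxifen cells, and macrophages express Abca1 strongly. The sum of 7 myeloid markers was 6.26 to 29.8 CPM in labeled fl/fl and 14.0 to 19.2 CPM in labeled control libraries, against 54.6 to 549 CPM in post-tamoxifen fl/fl and 15.5 to 418 CPM in post-tamoxifen control libraries, where Mpo alone of the 7 was at 0. Of the 7, 6 were tested and 5 fell in labeled cells in both genotypes, with medians of -3.97 in fl/fl and -3.06 in controls. Pecam1 also fell in labeled cells, with log2 fold changes of -0.44 in fl/fl and -0.64 in controls. By number the post-tamoxifen controls held 418, 15.5, 156, 171 and 236 CPM of these markers. Number 1 was highest and number 2 lowest for both this sum and Abca1. In post-tamoxifen fl/fl libraries Abca1 was 46.5, 47.4, 50.15, 29.05, 23.0 and 42.0 CPM by number. Their myeloid sums were 205, 170, 549, 72.05, 78.5 and 54.6 CPM. Labeled fl/fl 6 held 44.1 CPM of Abca1 with 6.265 CPM of these markers, and ex-Foxp3 fl/fl 2 held 47.3 with 9.707 CPM. Post-tamoxifen fl/fl 3, with the highest sum of 549 CPM, held 50.15 CPM of Abca1, the highest of its group. In labeled cells none of the 7 was at 0. The part of myeloid RNA in the Abca1 difference was not tested. The call was lost without labeled control 4 or 5 or post-tamoxifen control 1, 4 or 5 (-1.24 to -0.88 over all refits, edgeR adjusted p 0.00238 to 0.069), and within numbers 1 to 3 the value was -0.76 (0.235).

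Scd1, the desaturase gene that makes oleate, was present in few libraries. It had 0 counts in all 6 labeled fl/fl libraries, which allows up to 0.255 CPM over the group (3 counts of their total, counting error only), and 1.13, 1.53, 0.901, 0 and 0 CPM in labeled controls. In post-tamoxifen cells it was 21.9, 9.64, 19.4, 0, 3.53 and 0 CPM in fl/fl and 5.05, 0.325, 2.38, 0 and 2.28 CPM in controls. The 3 high fl/fl libraries, numbers 1 to 3, held 170 to 561 CPM of B and plasma markers against 10.2 to 11.3 CPM in numbers 4 to 6; none of the 7 was at 0 there, and Ms4a1 and Ebf1 were at 0 in labeled fl/fl cells. The same 3 libraries held 170 to 549 CPM of myeloid markers and 3564 to 5817 CPM of cell division genes, against 54.6 to 78.5 and 351 to 609 CPM in numbers 4 to 6. The part of these transcripts was not tested. Scd2, the desaturase gene of the same family, stayed between 84.8 and 197 CPM in all 33 pulse-chase libraries.

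**Figure D5:**
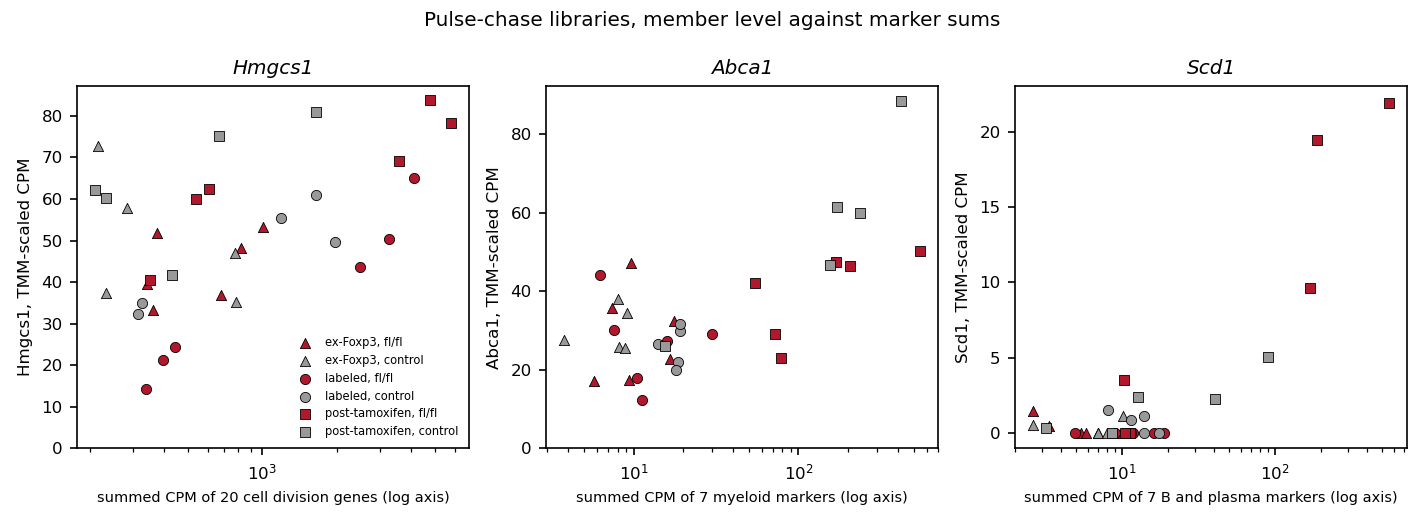
Hmgcs1 against summed cell division genes, Abca1 against summed myeloid markers and Scd1 against summed B and plasma markers (log horizontal axes), with 1 point for each pulse-chase library. Marker shape gives the sorted population and colour the genotype (red fl/fl, grey control). The highest Abca1 value, 88.5 CPM, lies at 418 CPM of myeloid markers, and the highest myeloid sum, 549 CPM, lies at 50.15 CPM of Abca1. The 3 highest Scd1 values lie at 170 to 561 CPM of B and plasma markers.

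Whether the genotypes differed in these population effects was tested directly. For ex-Foxp3 against labeled cells 0 members and 0 of all genes differed by edgeR (0%), with 0 members at an unadjusted p below 0.05 against 2.38% of genes, and 0 members by DESeq2. The smallest p values belonged to Scap (0.41 ± 0.20), Nsdhl (0.55 ± 0.38) and Stard4 (0.29 ± 0.21), each with an edgeR adjusted p of 1. For labeled against post-tamoxifen cells 0 members differed by edgeR and by DESeq2, against 0.0202% of all genes, and 1 member had an unadjusted p below 0.05 against 7.73%. Mylip had an interaction of 0.35 ± 0.17 (edgeR adjusted p = 0.64), Stard4 of -0.42 ± 0.21 (0.644) and Insig2 of 0.55 ± 0.30 (0.664). Insig2 was 15.1, 17.7 and 27.0 CPM (lowest, median, highest) in labeled and 11.5, 14.6 and 19.4 CPM in post-tamoxifen fl/fl cells, and 14.7, 17.6, 18.5, 15.0 and 22.6 CPM in labeled and 24.01, 20.5, 19.0, 20.2 and 17.8 CPM in post-tamoxifen controls. For Stard4 the labeled cells had 41.6, 56.5 and 65.8 CPM in fl/fl and 54.6, 63.1, 64.9, 53.8 and 39.2 CPM in controls.

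Over the 6 pulse-chase groups, the highest mean lay in post-tamoxifen controls for 12 of the 33 members and in post-tamoxifen fl/fl cells for 10, and the lowest in ex-Foxp3 fl/fl cells for 10. The same order was not counted over all genes, so these counts are not shown to be particular to the members. Averaged over the members, the log2 level was 5.01 ± 0.17 in ex-Foxp3 fl/fl, 5.08 ± 0.07 in ex-Foxp3 control, 5.07 ± 0.20 in labeled fl/fl, 5.11 ± 0.09 in labeled control, 5.26 ± 0.12 in post-tamoxifen fl/fl and 5.29 ± 0.17 in post-tamoxifen control libraries (SD, n = 6 fl/fl, 5 control). Ranked by level, neighbours differ by less than their SDs, except for post-tamoxifen fl/fl over labeled control libraries, whose gap is larger than either SD. The mean level of a member differed between the highest and the lowest of the 6 groups by 1.09-fold for Fasn and 1.16-fold for Acly, and by 2.54-fold for Idi1 and for the mevalonate kinase gene Mvk.

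Few genes of the neighbouring pathways passed the test. Of 31 other sterol and isoprenoid genes, 25 were tested in the chimera and 26 in the pulse-chase libraries. Rxra, the partner of LXR, fell in chimeric knockouts (-0.68 ± 0.18, edgeR adjusted p = 0.0355), 1 of 25 against 2.41% of all genes, and the list's median was 0.02. Fntb, a subunit of farnesyltransferase, fell in labeled against post-tamoxifen cells of fl/fl mice (-0.68 ± 0.16, 0.00758) and of controls (-0.64 ± 0.17, 0.0127), edgeR adjusted p in parentheses, and the LXR gene Nr1h3, which is strong in macrophages, in fl/fl mice (-3.77 ± 0.89, edgeR adjusted p = 0.00827). The medians there were -0.10 with 2 of 26 called, against 4.58% of all genes, and -0.16 with 1 of 26, against 7.93%.

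Of 30 other genes of fatty acid synthesis and lipid assembly, 25 were tested, and of 20 fatty acid oxidation genes 19. In post-tamoxifen cells Acsl5, an acyl-CoA synthetase gene, rose in fl/fl against control mice (0.57 ± 0.12, edgeR adjusted p = 0.00445), 1 of 25 against 7.23% of all genes, and so did the oxidation genes Acadl (0.50 ± 0.14, edgeR adjusted p = 0.0248) and Etfb (0.60 ± 0.18, edgeR adjusted p = 0.0351), 2 of 19 against the same 7.23%. Their lists had medians of 0.04 and 0.13. Ptplad1, a dehydratase gene of fatty acid elongation, rose in labeled against post-tamoxifen control cells (0.83 ± 0.18, edgeR adjusted p = 0.00265), 1 of 25 against 7.93% of all genes, with a median of 0.03. In the other comparisons no gene of these 3 lists was called.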

How the data were processed

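RNA from 41 sorted mouse cell samples, which the labels call biological replicates, was made into libraries with a SMARTer stranded total RNA kit, per the labels' protocols. The submitters' processing notes name bcl2fastq 2.17.1.14, TopHat2 2.1.0 and the mm10 build. The authors deposited raw counts per gene; the counting settings, strand included, are not given in the sources used here. Levels are CPM scaled by TMM, separately for the chimera and pulse-chase libraries. Each experiment was fitted on all its groups with edgeR 4.0.16 (R 4.3.3), using filterByExpr, the robust quasi-likelihood test and Benjamini-Hochberg adjustment over all genes (9569 and 9921 tested, threshold 0.05), and fold changes are log2. The fit was tested on simulated counts.

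The members and gene lists were chosen with earlier results of these data known. Every member could be named. Values are given for called members and, where fewer than 3 were called, for those with the smallest p. They are given per library, except that most fl/fl pulse-chase groups are given as lowest, median and highest. Called genes of the other lists, Uhrf1 and Foxp3 were named as well. Same-numbered libraries deviated together in ex-Foxp3 against labeled cells of fl/fl mice (correlations 0.144 to 0.36) and of controls (0.138 to 0.303), and between the labeled and post-tamoxifen libraries of fl/fl mice (0.244 to 0.438). The sample titles give the same number to the sorted populations of a genotype but do not state that it marks a mouse. Y-linked reads were present in every sorted population of pulse-chase controls 2 and 3. In the other pulse-chase controls they were at most 2.33 CPM. The main fit has no term for the number, so its population comparisons leave this pairing out, and the replicate block includes it. Alternatives were RLE scaling, other filters, DESeq2 1.42.0, a replicate block, the compared groups alone, subsets and leaving out each library. Promoters are from RefSeq (GRCm38.p6), and exon lengths from a GENCODE annotation of the same build.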

Additional observations from a re-analysis of the deposited data

Results flagged for a closer look

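In 5 of 47 sets of 4 to 6 libraries, 1 library lay far from the rest of its group; chance alone gives about 1 in 20. Elovl6 was 14.3 CPM in labeled fl/fl 6, and 21.9 to 25.5 CPM in the other 5 libraries. Acaca was 102.8 CPM in labeled control 5, and 68.6 to 77.3 CPM in the others. Ebp was 21.5 CPM in labeled control 4, and 31.4 to 34.7 CPM in the others. Mvd was 3.64 CPM in ex-Foxp3 control 4, and 5.81 to 6.45 CPM in the others. Srebf2 was 297 CPM in labeled control 3, and 219 to 241 CPM in the others.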

How the results depend on the processing

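No called value changed sign under any alternative run, but values near 0 did: the members' median ranged over both signs for genotype in labeled (-0.02 to 0.08), ex-Foxp3 (-0.16 to 0.0067) and post-tamoxifen cells (-0.14 to 0.05) and for ex-Foxp3 against labeled controls (-0.0085 to 0.05), and uncalled members such as Cyp51 in the last (0.00032 as reported, -0.0073 with RLE) did too. Leaving out 1 library, the medians of both interactions also took both signs (-0.11 to 0.04 and -0.03 to 0.08). Of the single-gene values, 254 kept their side of the threshold, 16 passed it only under an alternative and 11 no longer passed, and when leaving out 1 library each the counts were 356, 12 and 19. RLE scaling and the stricter count filter changed no count of called members in the 10 comparisons. Causes were not tested. In the chimera, 4 members were called with no count filter (Hmgcs1 and Idi1 added), 0 by DESeq2, 1 with the replicate block (Cyp51, 0.59, edgeR adjusted p = 0.0415), 0 without controls 3 and 4 (median 0.10) and 1 without the library with Y-linked reads, an alternative chosen after seeing the data. Leaving out 1 library gave 0 to 4 called members and medians of 0.11 to 0.19. In post-tamoxifen cells by genotype, 2 were called by DESeq2 (Mylip and Stard4), 2 with the replicate block (Mylip, adjusted p = 0.0066, and Stard4, 0.0212), 2 in numbers 1 to 3, and 0 in numbers 4 and above (median -0.14), in the compared groups alone, without the 2 low-Foxp3 libraries and without those with Y-linked reads; leaving out 1 gave 0 to 2. For ex-Foxp3 against labeled fl/fl cells, 1 was called by DESeq2 (Mvd), 2 with the block, 1 in numbers 4 and above (Hmgcs1), 1 without ex-Foxp3 fl/fl 1 and 3 (Mvd), and 0 to 1 when leaving out 1. For labeled against post-tamoxifen fl/fl cells, 1 was called with no count filter, 1 in numbers 1 to 3 and 1 without Y-linked reads (Scd1 each time), 2 by DESeq2, 2 with the block, 2 in numbers 4 and above (Hmgcs1 and Idi1), and 0 to 1 when leaving out 1. In the same comparison of controls, 2 were called with the block (Abca1, adjusted p = 0.0019, and Srebf2, 0.0033), 2 in the compared groups alone, 2 without the low-Foxp3 libraries, 0 in numbers 1 to 3, 3 in numbers 4 and above, and 0 to 2 when leaving out 1. The block changed no other member's call. Correlations between same-numbered libraries were not all above 0.1 in the chimera (-0.0887 to 0.0242) or the 3 pulse-chase genotype comparisons. The same held for labeled against post-tamoxifen controls (lowest -0.0238). There the Y-linked reads did follow the number, being present in both populations of controls 2 and 3 (318 to 455 CPM). The correlations therefore do not show that these control libraries are unpaired.

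Counts of all genes called moved more: 95 to 396 in the chimera (231 as reported), 0 to 149 in labeled cells (1), 2 to 229 in ex-Foxp3 cells (18), 147 to 1650 in post-tamoxifen cells (717), 163 to 893 and 4 to 211 for ex-Foxp3 against labeled fl/fl and control cells (406 and 35), and 78 to 805 and 125 to 1280 for labeled against post-tamoxifen fl/fl and control cells (454 and 787). For the interactions they were 0 to 0 (0) and 0 to 14 (2). Members under about 10 CPM, such as Acat2, Mvk, Pmvk and Mvd, rest on few reads at the depth of these libraries, and their SEs were 0.33 to 0.68.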
